A study of Mus musculus with 12 samples.

Results

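Motile cilia are the beating hairs of ependymal cells, the cells that line the brain ventricles and move cerebrospinal fluid. Their core, the axoneme, is a ring of microtubule doublets around a central pair, with dynein arms as motors and radial spokes as regulators. The prolactin receptor gene Prlr is best known in brain from the choroid plexus, the ventricular tissue that secretes cerebrospinal fluid, and from hypothalamic neurons. The genes described here are 9 genes of motile cilia (Dnah5, Spag1, Spef2, Cfap206, Ropn1l, Capsl, Ccdc180, Rgs22 and Ttc23l) and Prlr, 10 of 56923 rows in the table. They were chosen by gene name among rows in stretches of chromosomes 4 and 15 where measured row levels match exons, with earlier results of the same L-fucose comparison known. Their fold changes are therefore a description and support nothing by themselves.

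RNA came from wild-type (WT) mouse brain sections held 5 hours in aCSF, an artificial cerebrospinal fluid, with added L-fucose, a sugar of glycoproteins and glycolipids, or in aCSF alone. Each condition had 6 libraries, called here by group and replicate number. All 12 shared the wild-type genotype, the tissue label brain and the incubation in aCSF. The sources used here do not give strain, age, sex, sugar dose or brain region. Nothing in the labels says whether the sections of a group came from separate mice, so p-values measure only the spread between these samples. Values are normalized reads: each library's reads per gene were divided by a size factor. In sections of whole tissue, fewer cells of a type and less RNA per cell cannot be told apart.

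Library totals ran from 9191687 to 18563078 reads. The libraries aCSF 5 and aCSF 6 stood apart, with the highest mitochondrial shares of counted reads, 41.9% and 44.85%, and the fewest rows above 0, 14340 and 14856. They also lay at 82.5 and 57.5 on the first principal component, against -32.2 to 21.7 for the other 10 libraries. The mean mitochondrial share was 35.8 ± 2.59% for L-fucose, against 36.5 ± 6.17% for aCSF (SD, n = 6 each; exact permutation p = 0.771, two-sided, adjusted over 2 measures 0.771). L-fucose libraries had 17380 ± 884 rows above 0, against 16240 ± 1324 for aCSF (exact permutation p = 0.139, adjusted 0.277). Without aCSF 5 and 6, the L-fucose minus aCSF difference was 319 rows, against 1140 with all 12 libraries (exact permutation p = 0.619), and the difference in mitochondrial share turned to 2.72 percentage points, against -0.723 (exact permutation p = 0.257). Fold changes without aCSF 5 and 6 stand beside the results. The part of these measures in the results was otherwise not tested.

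Whether rows hold the level of the gene they name was checked first. On chromosomes 4, 6 and 15, levels were compared with protein-coding exons after displacing row positions by up to 600 kb. In 4 stretches the best match lay within 1000 bp of no displacement, namely 3.10–40.97 Mb and 44.30–59.55 Mb of chromosome 4, 3.07–30.59 Mb of chromosome 6, and 8.92–37.79 Mb of chromosome 15 (GRCm38). They held 1280 rows, of which 424 were tested, and all 10 genes lie in them. In steps of 50 bp, the displacement with the highest correlation was -100 bp on the chromosome 15 stretch (r = 0.764, against 0.758 at none) -50 bp on the stretch that holds Cfap206 and 0 on the stretch that holds Ccdc180. A displacement of 100 bp would leave between 34.8% (Ccdc180) and 89.9% (Prlr) of a gene's exon bases within its own exons. The windows of 80 rows that hold Spef2, Capsl, Prlr and Ttc23l all matched best at 1000 bp, the edge of what was allowed. Their r was 0.718 to 0.788 there, against 0.631 to 0.741 at none. At 1000 bp, 21.6% of Spef2, 15.2% of Capsl, 63.7% of Prlr and 2.7% of Ttc23l exon bases would stay within their own exons. Rgs22 and Spag1 lie in windows that matched best at -500 bp and in windows that matched best at 0. At -500 bp r was 0.7392 and 0.6922, against 0.6925 and 0.6719 at none. A displacement of 500 bp would leave 25.1% of Rgs22 and 60.5% of Spag1 exon bases within their own exons. The values of all these genes may therefore not be wholly their own. All 12 libraries share the same rows, so any displacement is the same in both groups. None of the 9 ependyma markers listed (among them Foxj1 and Ccdc153) and, apart from Prlr, none of the 17 choroid plexus markers (among them Ttr) has a row in the stretches, so the ependymal or choroid plexus content of the sections could not be checked on defining markers.

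The promoters of cilium genes often carry sites for RFX transcription factors, which with the forkhead factor FOXJ1 direct cilium genes. RefSeq promoters, 250 bases before to 50 after a start in GRCm38.p6, were found for 8 of the 10 genes. The 6 bases GTTGCC, an arm of the inverted repeat called the X-box that RFX factors bind, were searched on both strands. They occurred for 4 of these 8 genes, Spef2, Ccdc180, Ropn1l and Ttc23l, and for 14.1% of 27025 genes with a promoter. A whole X-box was present for Spef2 among the 8, and for 1.75% of all genes. It reads GTTGCCCTGGGCGAC and lies 8 to 22 bases past the annotated start, which counts as 0; the GTTGCC of Spef2 is part of this same match. The forkhead site GTAAACA was found for Prlr alone among the 8, at 1 of its 3 annotated starts and on the other strand, and for 4.05% of all genes. The common box CCAAT was found for Capsl and Prlr, 2 of the 8, and for 41.1% of all genes. The 60 bases before the start are shown for the genes with GTTGCC there and for the cilium genes with none, since they show where the site lies and what stands in its place. Spef2, whose match lies past the start, has none in these 60 bases and is not shown. Capitals mark GTTGCC, or GGCAAC where it lies on the other strand, and each sequence runs 5′ to 3′ on the strand of its gene.
Ccdc180 (chr4:45890243-45890302, plus strand): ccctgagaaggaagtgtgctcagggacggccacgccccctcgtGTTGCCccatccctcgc
Ropn1l (chr15:31453690-31453749, minus strand): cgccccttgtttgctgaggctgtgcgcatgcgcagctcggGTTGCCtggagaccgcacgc
Ttc23l (chr15:10558670-10558729, minus strand): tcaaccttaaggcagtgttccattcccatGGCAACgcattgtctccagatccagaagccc
Cfap206 (chr4:34730207-34730266, minus strand): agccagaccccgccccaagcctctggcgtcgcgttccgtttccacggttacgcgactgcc
Capsl (chr15:9435968-9436027, plus strand): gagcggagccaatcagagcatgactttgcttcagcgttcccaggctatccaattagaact
Dnah5 (chr15:28203706-28203765, plus strand): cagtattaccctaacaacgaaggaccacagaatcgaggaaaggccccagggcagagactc
In Ccdc180 the site lies 17 to 12 bases before the start, with a further GTTGCC from the start itself to base 5, in Ropn1l 20 to 15 bases before it and in Ttc23l 31 to 26 bases before it. A match of letters is a description and shows no binding.

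Sections with L-fucose were then compared with sections in aCSF alone. Neither Prlr nor any of the cilium genes passed the adjusted threshold. Spef2, Cfap206, Capsl and Dnah5 had lower means in L-fucose, with 95% confidence intervals of the log2 fold change that left out 0, while the intervals of Spag1, Ccdc180, Rgs22 and Ropn1l included it. Prlr had a lower mean in L-fucose and an interval that just included 0. Values were tested with limma across all 10787 rows that had at least 10 normalized reads in at least 6 libraries, with Benjamini-Hochberg adjustment over those rows and a threshold of 0.05. Of the 10 genes, 9 entered the test and 0 passed, beside 0 of 10787 rows higher and 0 lower (0% each). edgeR with TMM factors and limma-voom passed 0 of the 9 and 0 of all rows (0%), and DESeq2 passed 0 of the 9 and 1 of all rows (0.00927%). At an unadjusted p under 0.05 these tools called 5.58%, 5.88% and 6.41% of all rows. At an unadjusted p under 0.05 in limma, 4 of the 9 were lower and 0 higher, beside 2.79% of all tested rows lower and 3.17% higher, and beside 7.31% lower and 1.65% higher in the stretches. Since the genes were chosen with this contrast known, nothing is read from these counts. Rgs22 reached 10 normalized reads in 3 L-fucose and 5 aCSF libraries and so entered the test mostly through aCSF.

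**Figure D1:**
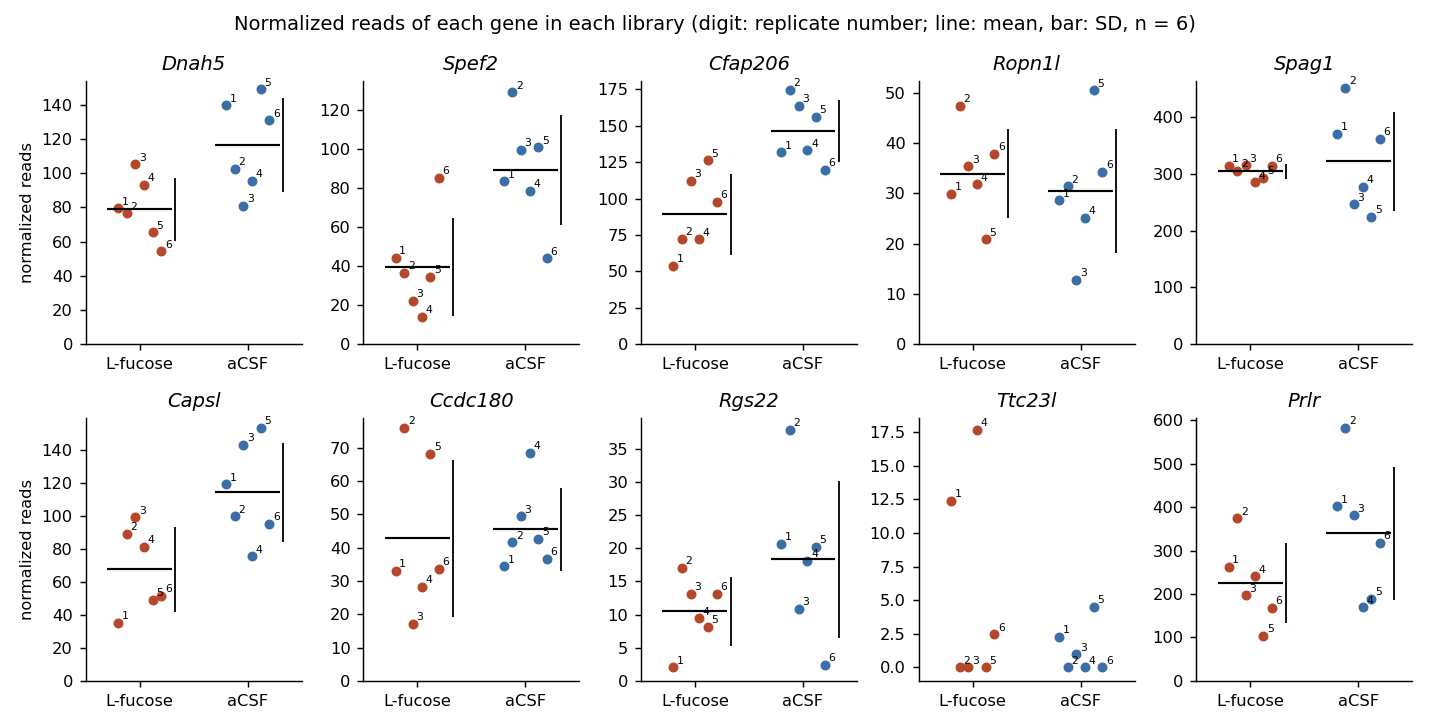
Normalized reads of each gene (vertical axis) in the 6 L-fucose and 6 aCSF libraries, 1 point per library with its replicate number; lines are means and bars SD, left out for Ttc23l, which is at 0 in 6 libraries. In every gene the ranges of the L-fucose and aCSF libraries overlap. For Dnah5, Spef2, Cfap206, Capsl, Spag1 and Rgs22 all 6 L-fucose points lie under the aCSF median, as in 7.92% of all tested rows.

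The outer dynein arm is represented by Dnah5 (ENSMUSG00000022262, chromosome 15 from 28203752 to 28472052, GRCm38), the heavy chain motor whose loss stops ciliary beating. The lowest, median and highest Dnah5 values were 54.3, 78.1 and 105 normalized reads in L-fucose, against 80.9, 117 and 149 in aCSF. All 6 L-fucose libraries lay below the aCSF median, and L-fucose 3 and 4 lay within the aCSF range. The log2 fold change, L-fucose minus aCSF, was -0.55 (SE 0.23; 95% confidence interval -1.02 to -0.08; limma adjusted p 0.827), or -0.41 without aCSF 5 and 6. Spag1 (ENSMUSG00000037617, chromosome 15 from 36178099 to 36235621) encodes a factor that assembles dynein arms in the cytoplasm before they enter the cilium. Its lowest, median and highest values were 285, 309.7 and 316 in L-fucose, against 224, 320.1 and 453 in aCSF. The L-fucose libraries all lay inside the aCSF range, at 304.6 ± 12.75 for L-fucose against 322.5 ± 87.45 for aCSF (SD, n = 6 each). Spag1 had the narrowest interval of the set, with a log2 fold change of -0.04 (-0.37 to 0.29; limma adjusted p 0.978). It was -0.11 without aCSF 5 and 6, and when 1 library was left out it ran from -0.13 to 0.07, positive without aCSF 1, 2 or 6. Whether the fold changes of Dnah5 and Spag1 differ was not tested.

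Spef2 (ENSMUSG00000072663, chromosome 15 from 9578193 to 9748868) encodes a protein of the central pair apparatus. It had the largest negative fold change of the 9 tested genes. Its lowest, median and highest values were 14.1, 35.5 and 85.5 in L-fucose, against 44.05, 91.7 and 129 in aCSF. L-fucose 6, at 85.5, and L-fucose 1, at 44.4, lay within the aCSF range, and the other 4 L-fucose libraries lay below every aCSF library. The log2 fold change was -1.30 (SE 0.37; -2.06 to -0.53; limma adjusted p 0.775). Over 25 alternatives of the fit it stayed between -1.56 and -1.06, with adjusted p between 0.276 and 0.991, and it was -1.47 without aCSF 5 and 6.

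Cfap206 (ENSMUSG00000028294, chromosome 4 from 34688559 to 34730206) encodes an axonemal protein involved in the docking of radial spokes and dyneins. Its lowest, median and highest values were 53.7, 85.1 and 126 in L-fucose, against 119.9, 144 and 175 in aCSF. The groups met only where L-fucose 5, at 126, exceeded aCSF 6, at 119.9. Its log2 fold change was -0.76 (SE 0.22; -1.22 to -0.30; limma adjusted p 0.819), or -0.80 without aCSF 5 and 6. Ropn1l (ENSMUSG00000022236, chromosome 15 from 31441211 to 31453737), a ropporin-like protein of radial spokes, had 20.9, 33.6 and 47.4 in L-fucose, against 12.8, 30.0 and 50.5 in aCSF. Every L-fucose library lay within the aCSF range, and the log2 fold change was 0.21 (-0.55 to 0.97), or 0.48 without aCSF 5 and 6. It was the sole tested gene of the 9 with a positive value, and it turned to -0.0048 without aCSF 3.

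The remaining cilium genes have less defined places in the axoneme. Capsl (ENSMUSG00000039676, chromosome 15 from 9436028 to 9466038) encodes a calcyphosine-like protein with calcium-binding EF hands. Its lowest, median and highest values were 35.1, 66.6 and 99.2 in L-fucose, against 75.55, 109.5 and 154 in aCSF. L-fucose 2, 3 and 4 lay within the aCSF range and L-fucose 1, 5 and 6 below it. The log2 fold change was -0.80 (SE 0.27; -1.37 to -0.23; limma adjusted p 0.827), or -0.74 without aCSF 5 and 6. Ccdc180 (ENSMUSG00000035539, chromosome 4 from 45890303 to 45950774), a coiled-coil protein, had 17.2, 33.4 and 76.0 in L-fucose, against 34.4, 42.1 and 68.5 in aCSF. L-fucose 2 and 5 were its highest and third-highest libraries, and the log2 fold change was -0.23 (-0.97 to 0.52). This value of Ccdc180 rested on single libraries, being -0.01 without L-fucose 3 and -0.43 without L-fucose 2, and it was -0.31 without aCSF 5 and 6 and -0.08 in edgeR with TMM factors. Rgs22 (ENSMUSG00000037627, chromosome 15 from 36009479 to 36140400), a regulator of G protein signalling known mainly from testis, had 2.07, 11.3 and 17.0 in L-fucose, against 2.45, 19.2 and 37.9 in aCSF. L-fucose 1 and aCSF 6 held the lowest values, and the log2 fold change was -0.62 (-1.94 to 0.70). For Rgs22 it was -0.28 without L-fucose 1, -0.35 without aCSF 2, and -1.05 without aCSF 6 or without aCSF 5 and 6.

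Ttc23l (ENSMUSG00000022249, chromosome 15 from 10500102 to 10558668), a tetratricopeptide repeat gene, was too low to test. It had 37 reads over the 12 libraries and was at 0 in 6 of them. The highest values were 17.7 in L-fucose 4 and 12.4 in L-fucose 1, while the other 4 L-fucose libraries held at most 2.47 and the aCSF libraries at most 4.49. Within groups its coefficient of variation was 166%, against 57.2% from counting alone.

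Prlr (ENSMUSG00000005268, chromosome 15 from 10177238 to 10349180) encodes the receptor of prolactin, a cytokine receptor that signals through JAK2 and STAT5. Its long and short isoforms share exons, so a gene count does not tell them apart. The lowest, median and highest values were 104, 219 and 374 in L-fucose, against 169, 349.5 and 582 in aCSF. L-fucose 5 lay well below every aCSF library and L-fucose 6, at 168.6, just below the lowest, aCSF 4 at 169.2, and 5 of 6 L-fucose values lay under the median of aCSF. The log2 fold change was -0.57 (SE 0.29; -1.18 to 0.03; limma adjusted p 0.842). It was -0.75 without aCSF 5 and 6. Prlr varied widely in both groups, with a within-group coefficient of variation of 44.7%, against 5.93% expected from counting alone.

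**Figure D2:**
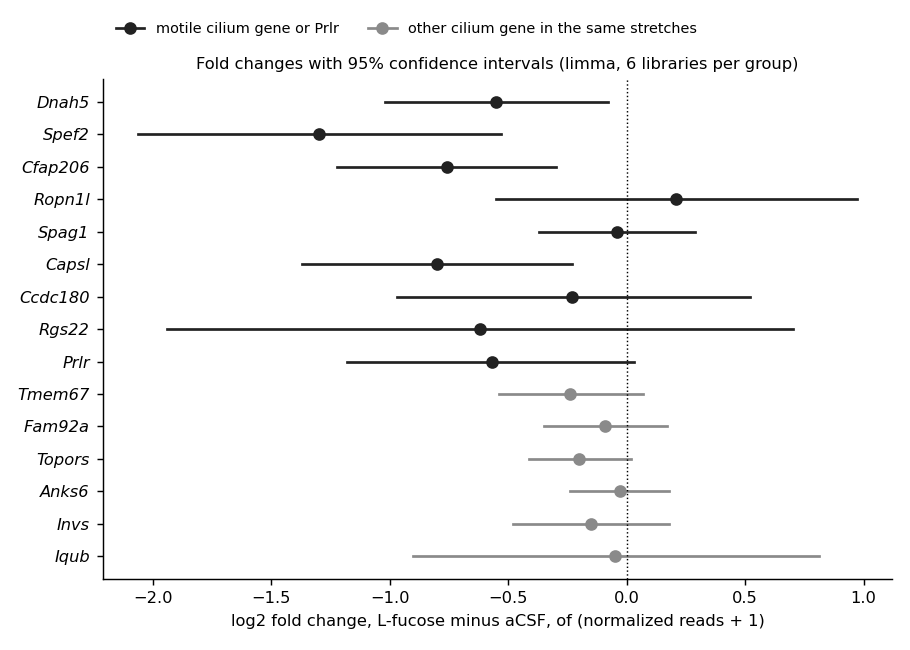
Log2 fold changes, L-fucose minus aCSF (horizontal axis), with 95% confidence intervals from limma for the 9 tested genes (black) and 6 other cilium genes in the same stretches (grey). Values run from -1.30 for Spef2 to 0.21 for Ropn1l, and the intervals of the grey genes all include 0.

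Over the 9 tested genes 8 fold changes were negative, beside 48.0% of all tested rows and 60.8% of those in the stretches. The median was -0.57, beside 0.01 over all tested rows and -0.05 in the stretches. For 6 of the 9 genes (Dnah5, Spag1, Spef2, Cfap206, Capsl and Rgs22) all 6 L-fucose libraries lay below the aCSF median, as did 7.92% of all tested rows and 12.5% of those in the stretches. For 0 of the 9 did every L-fucose library lie below every aCSF library, a separation that 0.139% of all tested rows and 0.708% of those in the stretches showed, while 0.148% of all rows were separated the other way. Leaving out aCSF 5 and 6 kept the sign of all 9 fold changes, but the share of all tested rows that did so was not taken.

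Other cilium genes in the same stretches were set beside these. Of 98 further motile cilium genes listed, 95 are in the table and 1, Iqub, a radial spoke adaptor, lies in a stretch. Iqub had 56.9 ± 34.4 normalized reads in L-fucose, against 50.8 ± 16.4 in aCSF (SD, n = 6 each; log2 fold change -0.05, interval -0.90 to 0.81). Of 45 genes of primary cilia, the immotile sensory cilia of most cells, and of basal bodies, 5 lie in the stretches. All 5 were tested, and 0 passed in either direction. Tmem67, of the ciliary transition zone, had 227.5 ± 36.6 in L-fucose, against 268 ± 37.1 in aCSF (log2 fold change -0.24, interval -0.54 to 0.07). Invs and Anks6, partners in the inversin compartment, were at -0.15 (-0.48 to 0.18) and -0.03 (-0.24 to 0.18) in log2 fold change. Topors and Fam92a, of basal bodies, were at -0.20 (-0.41 to 0.02) and -0.09 (-0.35 to 0.17), and Fam92a turned to 0.09 without aCSF 5 and 6. The other cilium genes stayed negative without these libraries, with Iqub at -0.16, Anks6 at -0.08, Invs at -0.20, Topors at -0.23 and Tmem67 at -0.26 in log2 fold change. Over the 5 genes of primary cilia and basal bodies the median log2 fold change was -0.15 with all 12 libraries. Of the prolactin and growth hormone signalling list of 12, Prlr alone lies in the stretches.

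Markers of other cell types in the stretches were few. The summed level of 3 of 8 fibroblast and vascular markers (Cav1, Col15a1 and Col1a2) ran from 1282 to 1521 in L-fucose and from 1210 to 1682 in aCSF. The 3 differed in direction: log2 fold changes were 0.24 (-0.05 to 0.54) for Col1a2, -0.24 (-0.62 to 0.13) for Col15a1 and -0.01 (-0.27 to 0.24) for Cav1. Penk and Tac1, the neuropeptide genes of striatal neurons, had sums from 7579 to 13900 in L-fucose and from 4045 to 10700 in aCSF. Penk had a log2 fold change of 0.61 (0.20 to 1.03; limma unadjusted p 0.00572, adjusted 0.827), with all 6 L-fucose libraries above the aCSF median, and Tac1 one of 0.16 (-0.13 to 0.45). Their part in the values of the cilium genes was not tested. Oligodendrocyte, astrocyte and microglia markers had 0 rows in the stretches.

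Per kilobase of exon, Capsl was the most abundant of the cilium genes, at 71.3 ± 27.1 normalized reads per kb in L-fucose, against 121 ± 31.5 in aCSF (mean ± SD of 6 libraries each, as for the others). Cfap206 followed at 35.85 ± 11.1 in L-fucose and 59.0 ± 8.61 in aCSF, beside Ropn1l at 35.4 ± 9.23 in L-fucose and 31.8 ± 12.9 in aCSF. Spag1 was at 27.3 ± 1.14 per kb in L-fucose and 28.9 ± 7.83 in aCSF, and in both groups its mean lay within the SD of Ropn1l around the mean of Ropn1l. Prlr was at 14.6 ± 6.00 per kb in L-fucose and 22.2 ± 9.96 in aCSF. Ccdc180 was at 8.07 ± 4.46 per kb in L-fucose and 8.60 ± 2.34 in aCSF, Dnah5 at 5.05 ± 1.18 in L-fucose and 7.45 ± 1.74 in aCSF, and Spef2 at 3.99 ± 2.52 in L-fucose and 9.01 ± 2.87 in aCSF. In aCSF the means of these 3 genes lay within the SD of each other. Lowest were Rgs22, at 1.85 ± 0.916 per kb in L-fucose and 3.24 ± 2.09 in aCSF, and Ttc23l, at 2.49 in L-fucose and 0.593 in aCSF. These levels rest on all annotated exons and on the row positions discussed above.

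Sections can hold more or less of the ventricle wall, so it was asked whether the 10 genes varied together over libraries. Deviations from the group mean were used, which do not rest on the L-fucose contrast. Over the 45 pairs of the 10 genes the median Pearson r of log2(normalized reads + 1) was 0.050 over 12 libraries, and 26 pairs, or 57.8%, were positive. Over all 89676 pairs of the 424 tested rows in the stretches the median was 0.049 and 55.2% were positive. Over the 36 pairs without Ttc23l, which was too low to test, the median was 0.060 and 63.9% were positive. The sign of the median over the 45 pairs depended on the setting: it was -0.043 within L-fucose (0.035 over all pairs of the stretches), 0.099 within aCSF (0.090), 0.128 with Spearman's rho (0.049), 0.064 without aCSF 5 and 6 (0.036) and -0.082 with the replicate number as a block (0.045). It ran from -0.01 to 0.063 when 1 library was left out. With a permutation test of 100000 resamples within groups, two-sided and adjusted over 45 pairs, 0 pairs passed for r (smallest adjusted p 0.909) or for Spearman's rho (0.838). At an unadjusted p under 0.05 for r there was 1 pair, and it was negative. Within the groups, 14 pairs were positive in both and 27 had the same sign in both. Shares over all pairs of the stretches were not taken for these counts, so nothing is read from them. At an unadjusted exact p under 0.05 there were 2 pairs within L-fucose, 1 of them positive, and 4 within aCSF, all positive. Within L-fucose these are 4.44% of the 45 pairs, beside 5.59% of all pairs in the stretches, and the positive ones 2.22%, beside 3.07%. Within aCSF the 4 positive pairs are 8.89% of the 45, while of all pairs in the stretches 4.29% were positive at this p and 6.85% of either sign. The 4 include Capsl with Ttc23l and Spef2 with Rgs22, pairs that rest on low values. Ttc23l had at most 4.49 normalized reads in aCSF, and Rgs22 had 2.45 in aCSF 6. Ttc23l is also not among the tested rows that the share of all pairs is taken from. After adjustment 0 passed in either group (smallest adjusted exact p 0.844 in L-fucose and 0.250 in aCSF). The smallest within aCSF was that of Spef2 with Cfap206, at r = 0.0305 within L-fucose (exact permutation p = 0.960) and 0.907 within aCSF (exact permutation p = 0.00556, adjusted 0.250), singled out after its value was seen.

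The negative pair was Spef2 with Dnah5, at r = -0.617 (permutation p = 0.0394, adjusted 0.909) and rho = -0.462 (permutation p = 0.156, adjusted 0.838) over 12 libraries. It was -0.845 within L-fucose (exact permutation p = 0.0444) and -0.301 within aCSF (exact permutation p = 0.635). Without L-fucose 4 and 6, the libraries whose Spef2 deviations lay farthest from the median deviation, r was -0.415, and without aCSF 5 and 6 it was -0.691. L-fucose 6 held the highest Spef2 and the lowest Dnah5 value of its group. Spef2 with Prlr gave r = 0.0169 (permutation p = 0.959, adjusted 0.965) and rho = 0.203 (permutation p = 0.548, adjusted 0.838), and r = 0.262 without the same 2 libraries. It was -0.154 within L-fucose (exact permutation p = 0.800) and 0.276 within aCSF (exact permutation p = 0.624). Prlr was positive with 7 of the 9 cilium genes, with a median r of 0.084. Over all pairs of tested rows in the stretches 55.2% were positive and the median was 0.049. The highest r of the 45 was 0.560, for Ropn1l with Dnah5. It was 0.182 without the 2 libraries whose Ropn1l deviations lay farthest from the median deviation. Spag1 with Prlr had 0.551, which was 0.204 without the 2 libraries farthest in Spag1 deviation.

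**Figure D3:**
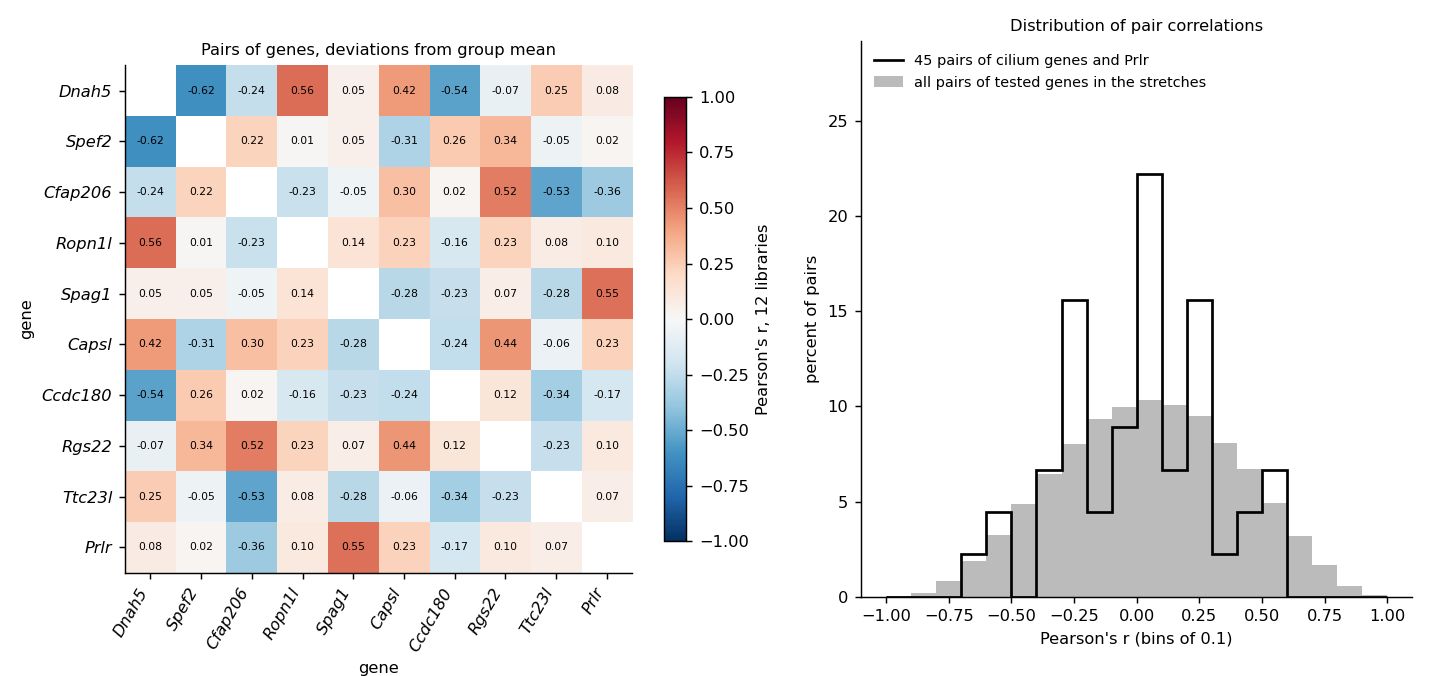
Left, Pearson's r for each pair of genes over 12 libraries after removing group means (colour and printed value). Right, the percent of pairs (vertical axis) by r in bins of 0.1 for the 45 pairs (line) and for all pairs of tested genes in the stretches (grey); both centre near 0, with medians of 0.050 and 0.049.

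Counting error made up from 1.76% (Prlr) to 27.7% (Ropn1l) of the within-group variance of normalized reads, 8.95% for Spef2 and 18.6% for Dnah5. The spread within groups was therefore larger than counting gives. No library was high or low for all 10: the number of genes above their group mean ran from 3 (L-fucose 5) to 7 (L-fucose 2) in L-fucose and from 2 (aCSF 4) to 7 (aCSF 1 and aCSF 5) in aCSF. Among the L-fucose libraries, L-fucose 4 had the lowest Spef2 value, a deviation of -1.21 on the log2 scale, with Dnah5 at 0.27 and Capsl at 0.35. Among the aCSF libraries, aCSF 6 was lowest for Rgs22, at -2.17, and for Spef2, at -0.93, with Ropn1l at 0.27 and Dnah5 at 0.20.

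**Figure D4:**
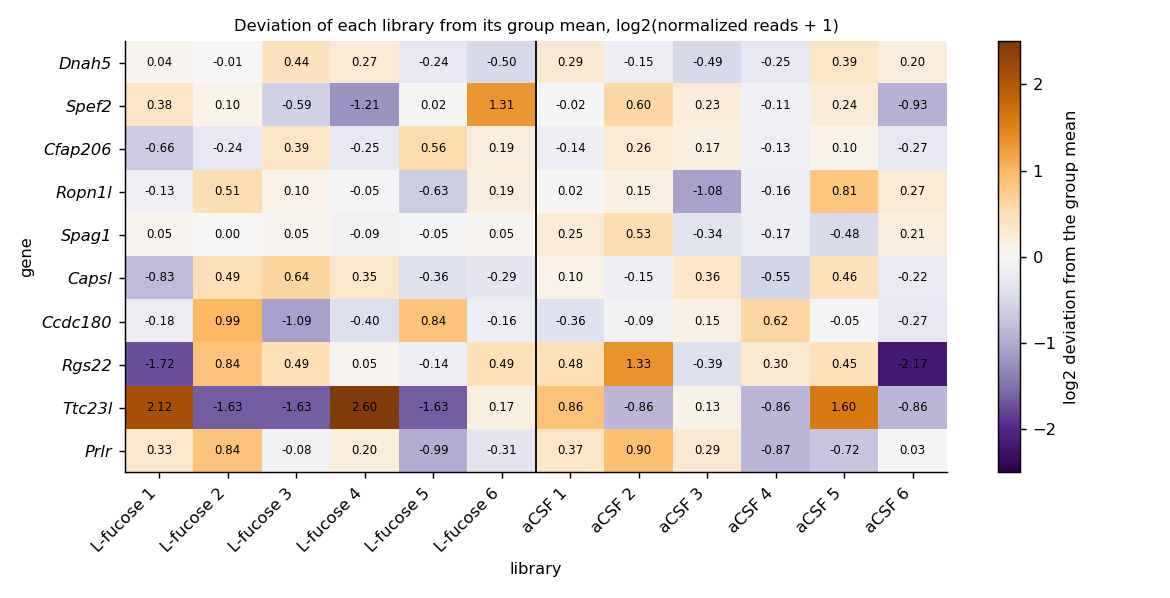
Log2 deviation of each library (columns, L-fucose left of the line and aCSF right of it) from its group mean for each gene (rows), as colour and printed value. No column has the same sign in all rows, and Ttc23l and Rgs22, the lowest genes, hold the widest deviations.

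Among 346 other named genes tested in the stretches, those whose deviations were among the most like the mean standardised deviation of the 10 genes over 12 libraries were Rmdn1 at r = 0.78, Pnisr at 0.76, and Strip2 and Rbm12b1 at 0.74 each. These are among the highest of 346 values and carry no test. Rmdn1 was at 0.16 (-0.19 to 0.52), Pnisr at -0.20 (-0.46 to 0.05), Strip2 at 0.25 (-0.07 to 0.58) and Rbm12b1 at -0.07 (-0.47 to 0.33) in log2 fold change, and 0 of them passed in limma. Among the 10 genes, r with the mean of the other 9 ran from -0.37 for Ccdc180 to 0.57 for Rgs22, with Spef2 and Dnah5 at -0.03 each.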

How the data were processed

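Per the submitters' processing notes, the build was mm10 and the tools were HISAT2 2.2.1, DESeq2 2.11.40.8, Trimmomatic 0.39 and featureCounts 2.0.3. The sources used here do not give the annotation release, strand setting or filters. Per the labels' protocols, libraries were made from poly-T selected messenger RNA with random hexamer primers. The authors deposited 1 table of a normalized signal, which the values show to be reads divided by 1 size factor per library: 100% of values were whole multiples of 1 read within a tolerance of 0.01, so reads were recovered for the count tests. Identifiers were matched to GENCODE M21 (GRCm38). Stretches where levels match exons were found in windows of 80 rows moved by 20, displaced in steps of 500 bp, with at least 120 rows.

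limma 3.58.1 (R 4.3.3) was fitted to log2(value + 1) with an intensity trend, group as the sole term and two-sided tests; this scale understates changes of low genes. Alternatives used edgeR 4.0.16, DESeq2 1.42.0, limma-voom, other filters, pseudocounts and left-out libraries. Correlations and exact permutation tests used Python 3.11.15 and numpy 2.4.6. The fits were tested on simulated data. The genes, lists and tests were chosen with earlier results of these data known. The text names all 10 genes, listed cilium, ependyma, choroid plexus and prolactin pathway genes in the stretches, and the 5 most alike genes, of which 1 is not reported here.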

Additional observations from a re-analysis of the deposited data

How the results depend on the processing

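Of 25 alternatives of the fit, DESeq2 gave 1 row past the adjusted threshold, Gabrr2, and the others gave 0, and 0 of the 9 tested genes passed in any. At an unadjusted p under 0.05 limma gave 643 rows, 1232 of 29235 with no filter and 1177 of 10425 without aCSF 5 and 6, and 426 without L-fucose 4. Of the 9 genes, 7 kept the sign of their fold change throughout. The alternatives reuse the same libraries, and the share of all tested rows that kept their sign was not taken, so nothing is read from this count. Ropn1l ranged from -0.0048 (without aCSF 3) to 0.37 and Spag1 from -0.13 to 0.07 when 1 library was left out. Rgs22 could not be tested with a filter of 20 normalized reads. Spag1 was at 0.01, 0.07 and 0.0029 without aCSF 1, 2 and 6. The titles number the samples WT 1 to 6 in both groups without saying what a number stands for. The replicate block changed no call: limma and edgeR gave 0 rows and 0 of the 9 genes with it. Same-numbered libraries had correlations of deviations between -0.168 and 0.17, and 1 of 6 L-fucose libraries correlated best with its own number. With so few libraries, and aCSF 5 and 6 standing apart, these values cannot decide whether the numbers pair the libraries. The median r over pairs was -0.082 with the replicate block, -0.043 within L-fucose, 0.099 within aCSF and 0.128 with Spearman's rho, and it ran from -0.01 to 0.063 when 1 library was left out. The cause of these shifts was not tested. Without aCSF 5 and 6, left out here after seeing the data, mean mitochondrial share was 2.72 percentage points higher in L-fucose (exact permutation p = 0.257). Depth limits Ttc23l and Rgs22 most, with 37 and 184 reads over 12 libraries.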
